A study of Mus musculus with 20 samples.

Results

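The axonal compartment of cultured mouse motoneurons was compared between Tdp-43 knockdown and control. The comparison rests on the 10 libraries that the labels place in the axonal compartment, 6 from Tdp-43 knockdown and 4 from control motoneurons, of 20 libraries in the series. Among the 39174 genes listed in each library, the 22736 that the files mark as protein-coding were followed, and the 12077 of them that averaged 1 FPKM or more in these libraries could be tested. FPKM is the number of sequenced fragments relative to the exon length of a gene and to the mapped total of the library, computed by the authors for each library. All motoneurons were primary cells from the spinal cords of mid-gestation CD-1 mouse embryos with no other allele named, enriched on dishes coated with an antibody against the low-affinity neurotrophin receptor and grown in microfluidic chambers, in which axons enter a compartment of their own. Knockdown motoneurons carried a lentivirus for a short hairpin RNA (shRNA) against Tdp-43, and control motoneurons the empty lentiviral vector, so that the control carries no hairpin. The question of the comparison is which transcripts change their level in axons when Tdp-43 is depleted. Total RNA of the axonal compartment was amplified by PCR before sequencing, and nothing in the labels says whether embryos were pooled or whether the libraries of a group came from separate preparations, so that p-values measure the spread between these libraries.

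TDP-43 is a nuclear RNA-binding protein that regulates splicing, stability and transport of many mRNAs and represses its own transcript, and it is lost from the nucleus and aggregates in the motoneurons of most patients with amyotrophic lateral sclerosis. Axons of motoneurons hold mRNAs for ribosomal, mitochondrial and cytoskeletal proteins, which are carried there by RNA-binding proteins and can be translated locally. Such mRNAs are present in small amounts, so that axonal libraries hold few molecules per gene.

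The axonal libraries were shallow and uneven. Relative to the deepest library of the series, the depth read from the FPKM intervals was 0.530 to 0.675 in control and 0.103 to 0.761 in knockdown libraries, where knockdown library 5 was the shallowest, with 7040 protein-coding genes above 0 against 11112 to 11848 in control libraries. The median protein-coding gene above 0 had 0.526 to 4.48 implied fragments per library, a rough index read from those intervals and no count of reads. Genes used by every cell, such as the proteasome subunit Psma5 and the splicing protein Snrpd3, are among those listed at 0 in knockdown library 5. Single values are thus uncertain at this depth. Protein-coding genes took 29.2% to 32.4% of all FPKM in control and 39.6% to 54.4% in knockdown libraries, with no overlap, and the libraries were therefore scaled by the median of ratios before testing. Of 9 motoneuron markers, 5 were listed at 0 in all 10 axonal libraries, among them Chat and Mnx1, and only Ache passed the filter on low values, so that the labelled cell type could not be checked from its defining markers. Of 14 markers of other spinal and sensory neurons, 8 passed that filter, among them Gad1 and Slc32a1. The 14 summed to 45.5 to 109.6 in control and 4.85 to 167 in knockdown libraries (scaled FPKM). Markers of pericytes and smooth muscle summed to 237 to 1499 in control and 107 to 2123 in knockdown libraries (scaled FPKM), those of astrocytes to 144 to 566 in control and 87.1 to 460.0 in knockdown libraries, and those of neural progenitors to 218 to 496 in control and 61.5 to 436 in knockdown libraries. The groups overlapped for each of these sums, and the part of other cells in the results was not tested.

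The shRNA and its target are shown because they define the knockdown group. The 21 bases of the hairpin stem occur in the transcripts of a single gene of GENCODE M21, Tardbp, on the minus strand of chromosome 4 from 148618697 to 148618717 (GRCm38). The site lies in 21 of 30 annotated Tardbp transcripts and within the coding sequence of all 13 protein-coding transcripts that hold it.
shTdp-43 target site: gcataatagcaatagacagtt

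Tardbp itself (chromosome 4, 148612382 to 148627019), the gene for Tdp-43, was at 39.7, 23.7, 41.5 and 15.5 scaled FPKM in control libraries 1 to 4, and at 1.19 at the lowest, 11.3 at the median and 23.5 at the highest in the 6 knockdown libraries. The groups overlapped, since the library labelled knockdown 1 had the highest knockdown value, which after scaling lay within the range of the control libraries. Before scaling, that library was at 33.2 FPKM, above the highest control library (32.3). Exons of Tardbp overlap those of Masp2 on the other strand. On the log2(scaled FPKM + 1) scale the change was -1.71 (SE 0.63, limma adjusted p = 0.427). The unadjusted limma p was under 0.05, but not without control library 3. Before scaling, mean FPKM in knockdown reached 52.9% of that in control (two-sided exact permutation test, p = 0.138), after scaling it was 35.1% (p = 0.00952 in the same exact test), and without the library labelled knockdown 1 it was 36.5% before scaling (p = 0.0159 in the same exact test). The target gene thus does not separate the library labelled knockdown 1 from the controls. Without it, 268 protein-coding genes rose and 728 fell, within 1.5 times the counts from all 10 libraries given next.

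More protein-coding transcripts were lower than higher in knockdown axons once the libraries were scaled, and few single changes passed the adjusted threshold. Of 12077 protein-coding genes, 883 had an unadjusted limma p under 0.05, or 7.31% of those tested. Among these, 250 were higher (2.07% of those tested) and 633 lower (5.24%). The adjusted limma p was under 0.05 for 8 genes (0.0662%), 1 of them higher. The ranges of the groups were apart in 231 genes (1.91%), of which 56 were higher (0.464%) and 175 lower (1.45%). In what follows, rose and fell are written of genes with an unadjusted limma p under 0.05, a level that 5% of unchanged genes would reach.

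The direction of these counts changed with the scaling. The median protein-coding gene stood at -0.16 on the log2 scale after scaling and at 0.25 with the FPKM as deposited, under which 892 genes rose and 194 fell. After quantile normalization 346 rose and 513 fell. The balance also moved with the libraries included. Without knockdown library 5, 430 rose and 606 fell. In the 7 deeper libraries, those at 0.5 or more of the deepest, 403 rose and 389 fell, at a median of 0.08. These were the 4 control libraries, knockdown libraries 3 and 6 and the library labelled knockdown 1. The subset thus differs in which knockdown libraries remain as well as in depth. Functional classes are therefore described relative to the median of all protein-coding genes.

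Of the 8 genes past the adjusted threshold, 2 had no near copy in the annotation, Tac1 and Cd248. Tac1 encodes the precursor of the neuropeptides substance P and neurokinin A. It was at 4.59, 21.6, 25.3 and 13.1 scaled FPKM in the control libraries, and was listed at 0 in 5 of the 6 knockdown libraries, with 1.74 in knockdown library 3. The groups did not overlap, and the fitted log2 change was -3.64 (SE 0.63, limma adjusted p = 0.0102), a size that depends on the pseudocount. In a median control library the implied fragments of Tac1 were 2.03. The adjusted call was lost without control library 2 (adjusted p = 0.0551 in limma) and without control library 3 (adjusted p = 0.0693 in limma). In somatodendritic libraries Tac1 changed in the same direction (log2 change -2.42, limma adjusted p = 0.139).

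Cd248 encodes endosialin, a membrane glycoprotein of pericytes and fibroblasts, and was the single protein-coding gene past the adjusted threshold that was higher. It was listed at 0 in 3 control libraries and at 1.10 scaled FPKM in control library 1, and it was at 2.35 at the lowest, 10.5 at the median and 28.6 at the highest in the knockdown libraries. All 6 knockdown libraries thus lay above every control library (log2 change 3.23, SE 0.67, limma adjusted p = 0.0484). The adjusted call was kept only without knockdown library 3 and lost in the other 9 fits without 1 library, with adjusted p up to 0.167 in limma. None of the other tested markers of fibroblasts and mesenchymal cells passed the test. Their sum, Cd248 included, was 64.6 to 161 in control and 58.9 to 149.8 in knockdown libraries, with 12 of the 15 markers above the filter and Twist2 and Lum listed at 0 in all 10 libraries. Cd248 had too low a mean in somatodendritic libraries to be tested there.

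Other genes past the threshold share sequence with other transcripts, and the authors' counting could have divided reads between the copies. The largest in level was Lars2 (chromosome 9, 123366940 to 123462664), the mitochondrial leucyl-tRNA synthetase, which was at 9891, 8147, 10431 and 4966 scaled FPKM in the control libraries and at 886 at the lowest, 1207 at the median and 1330.5 at the highest in the knockdown libraries. The groups were far apart, at a log2 change of -2.79 (SE 0.29, limma adjusted p = 6.4e-05), and this call was kept whichever of the 10 libraries was left out. AA474408, a transcript without an annotated coding sequence in GENCODE M21, was at 12.6, 5.04, 6.19 and 5.50 in the control libraries and at most 0.387 in the knockdown libraries (log2 change -2.87, limma adjusted p = 0.0231). Its call was lost in 5 of the 10 fits without 1 library, those without control libraries 1 and 3 and knockdown libraries 2, 3 and 6.

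Lars2 and AA474408 hold an identical run of 36 bases, which among the transcripts of GENCODE M21 occurs only in these and in Gm15564, a noncoding gene that fell too (log2 change -6.38, limma adjusted p = 5.9e-04). The end of that run is shown because reads from it cannot be assigned to a single gene. Capitals mark the last 20 bases of the run, and lower case the 10 bases that follow, all on GRCm38. In Lars2 the bases lie in the 3′ UTR on the plus strand of chromosome 9, 123462064 to 123462093. In AA474408 they lie on the minus strand of chromosome 7, 110059693 to 110059722, and in Gm15564 on the minus strand of chromosome 16, 35981751 to 35981780.
Lars2: GGATTGTTCACCCACTAATAgggaacgtga
AA474408: GGATTGTTCACCCACTAATAaggaacgtga
Gm15564: GGATTGTTCACCCACTAATAgggaacgtga
The 3′ UTR of mouse Lars2 is known to hold a stretch of ribosomal RNA sequence. How much of the value of each gene came from ribosomal RNA was not tested.

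Rpl13-ps3 and Gm9791 are annotated in GENCODE M21 as processed pseudogenes, although the files mark them as protein-coding. Rpl13-ps3 is 96.5% identical to Rpl13, a protein of the large ribosomal subunit, over 636 bases, and the copies moved together. Rpl13-ps3 was at 19.02, 20.5, 8.21 and 13.1 scaled FPKM in control libraries and at most 1.80 in knockdown libraries (log2 change -3.45, limma adjusted p = 0.00858). Its call was lost without control library 1 (adjusted p = 0.0617 in limma). Rpl13 itself was at 28.4, 46.8, 47.4 and 20.96 in control and at 3.89 at the lowest, 8.42 at the median and 12.7 at the highest in knockdown libraries, again without overlap (log2 change -1.97, limma adjusted p = 0.0855). Gm9791 matches Carhsp1, which encodes an RNA-binding cold shock protein, over all 447 bases at 99.3% identity. Gm9791 was at 9.64, 2.03, 5.40 and 8.24 in control libraries and listed at 0 in all 6 knockdown libraries (limma adjusted p = 0.0462), while Carhsp1 had a log2 change of -0.68 (limma adjusted p = 0.707). The call of Gm9791 was lost in 9 of the 10 fits without 1 library, all but the fit without control library 2.

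Rps3, a small-subunit ribosomal protein, was at 216, 222, 191 and 86.6 scaled FPKM in control libraries and at 27.2 at the lowest, 37.8 at the median and 63.3 at the highest in knockdown libraries. The groups did not overlap (log2 change -2.04, limma adjusted p = 0.0161), and the call was lost without control library 1, 2 or 3. Its sequence is 95.8% identical to the pseudogene Gm8130 over 570 bases. With the FPKM as deposited, the adjusted calls of Rps3, Gm9791 and AA474408 were lost, and those of Tac1, Cd248, Lars2 and Rpl13-ps3 were kept. In a fit of protein-coding genes alone, Lars2 kept its call (adjusted p = 7.8e-04 in limma) and the other 7 lost it, at adjusted p from 0.108 to 0.294.

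Beyond these, genes were taken whose groups did not overlap, whose unadjusted limma p was under 0.05 and whose higher group averaged at least 10 scaled FPKM. This left 148 genes, 39 higher and 109 lower, and the 12 largest changes in each direction are described. All 24 kept their direction with the FPKM as deposited, and their unadjusted p stayed under 0.05 there and in each of the 10 fits without 1 library.

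The 12 largest falls included proteins of the secretory pathway and of metabolism. Erp29, a chaperone of the endoplasmic reticulum, was at 43.7, 60.9, 65.5 and 109 scaled FPKM in control and at 3.1e-05 at the lowest, 11.8 at the median and 20.96 at the highest in knockdown libraries (log2 change -2.91, limma adjusted p = 0.108). Prdx4, the peroxiredoxin of the endoplasmic reticulum, was at 14.3, 30.001, 10.7 and 15.3 in control libraries and was listed at 0 in 4 of 6 knockdown libraries, with 10.5 at the highest, close under the lowest control value (log2 change -3.01). Ppa1, a cytosolic inorganic pyrophosphatase, went from 64.7, 89.6, 58.8 and 53.96 in control to 0 at the lowest, 12.5 at the median and 40.3 at the highest in knockdown libraries (log2 change -2.61). Akr7a5, an aldo-keto reductase that detoxifies aldehydes, had a log2 change of -2.65 but a wide control range, from 2.05 to 24.1.

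Signalling and protein modification genes stood beside them. Abhd17a, which removes palmitate from membrane proteins, was at 13.4, 12.1, 23.3 and 20.5 scaled FPKM in control and at 0 at the lowest, 0.817 at the median and 5.32 at the highest in knockdown libraries (log2 change -3.11, limma adjusted p = 0.0700). Shb, an adaptor that binds activated receptor tyrosine kinases, was at 42.3, 27.02, 39.5 and 8.33 in control and at 0 at the lowest, 3.10 at the median and 7.38 at the highest in knockdown libraries (log2 change -3.10). Lsmd1, now named Naa38, a subunit of the N-terminal acetyltransferase C, was at 20.98, 16.9, 13.1 and 22.4 in control and at most 6.40 in knockdown libraries (log2 change -3.02). Pstk, the kinase that prepares selenocysteine-tRNA, had a log2 change of -3.00, and the linker histone Hist1h1b one of -2.76. For these 12 genes the implied fragments in a median knockdown library ran from 0 to 4.76 without Lars2, so that the sizes of these falls are loosely set. Exons of Erp29, Pstk and Lsmd1 overlap those of genes on the other strand (Naa25 and Tmem116, Ikzf5, and Cyb5d1 and Tmem88), as do those of Tle2, Ptbp3, Dip2a and Cxxc4 among the rises below, and reads of the partners cannot be told apart where the counting took no account of strand, which the sources used here do not state.

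The 12 largest rises included regulators of transcription and chromatin. Jarid2, a cofactor of Polycomb repressive complex 2, was at 1.80, 7.14, 11.1 and 16.6 scaled FPKM in control and at 21.1 at the lowest, 41.8 at the median and 55.6 at the highest in knockdown libraries (log2 change 2.25, limma adjusted p = 0.0865). Ep400, an ATPase of a chromatin remodelling complex, was at 36.4, 18.97, 19.3 and 7.71 in control and at 50.01 at the lowest, 67.7 at the median and 145 at the highest in knockdown libraries (log2 change 2.01, limma adjusted p = 0.0758). Ebf1, a transcription factor of developing neurons and lymphocytes, was at 22.96, 15.8, 28.1 and 14.3 in control and at 39.5 at the lowest, 67.04 at the median and 217 at the highest in knockdown libraries (log2 change 2.01). For each of these genes every knockdown library lay above every control library. Tle2, a Groucho corepressor, was listed at 0 in control libraries 3 and 4 and was at 6.30 at the lowest, 10.8 at the median and 15.9 at the highest in knockdown libraries (log2 change 2.49). Cxxc4, which binds DNA and restrains Wnt signalling, changed by 1.5. Ptbp3, a paralog of the polypyrimidine tract splicing repressor, changed by 1.58.

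Mitochondrial and lipid-handling genes made up part of the rest. Gatc, a subunit of the amidotransferase that makes mitochondrial glutaminyl-tRNA, was at 4.72, 4.97, 4.41 and 1.68 scaled FPKM in control and at 7.27 at the lowest, 16.04 at the median and 20.2 at the highest in knockdown libraries (log2 change 1.74, limma adjusted p = 0.210). Usmg5, a small membrane subunit of ATP synthase dimers, was at 45.6, 4.36, 38.7 and 48.7 in control and at 49.3 at the lowest, 84.8 at the median and 139 at the highest in knockdown libraries (log2 change 1.67), where the highest control and the lowest knockdown library almost met. Stard10, a phospholipid transfer protein, was listed at 0 in control libraries 1 and 2 and was at 3.55 at the lowest, 9.03 at the median and 18.01 at the highest in knockdown libraries (log2 change 2.51). Rabl2, a small GTPase of cilia, changed by 1.94, with knockdown library 5 at 63.6 and the other knockdown libraries up to 25.9. Dip2a, which takes part in lipid and acetyl-CoA metabolism, changed by 1.5. The plot of the named genes in each library shows that the rises reached moderate levels, while many falls ended at 0.

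**Figure D1:**
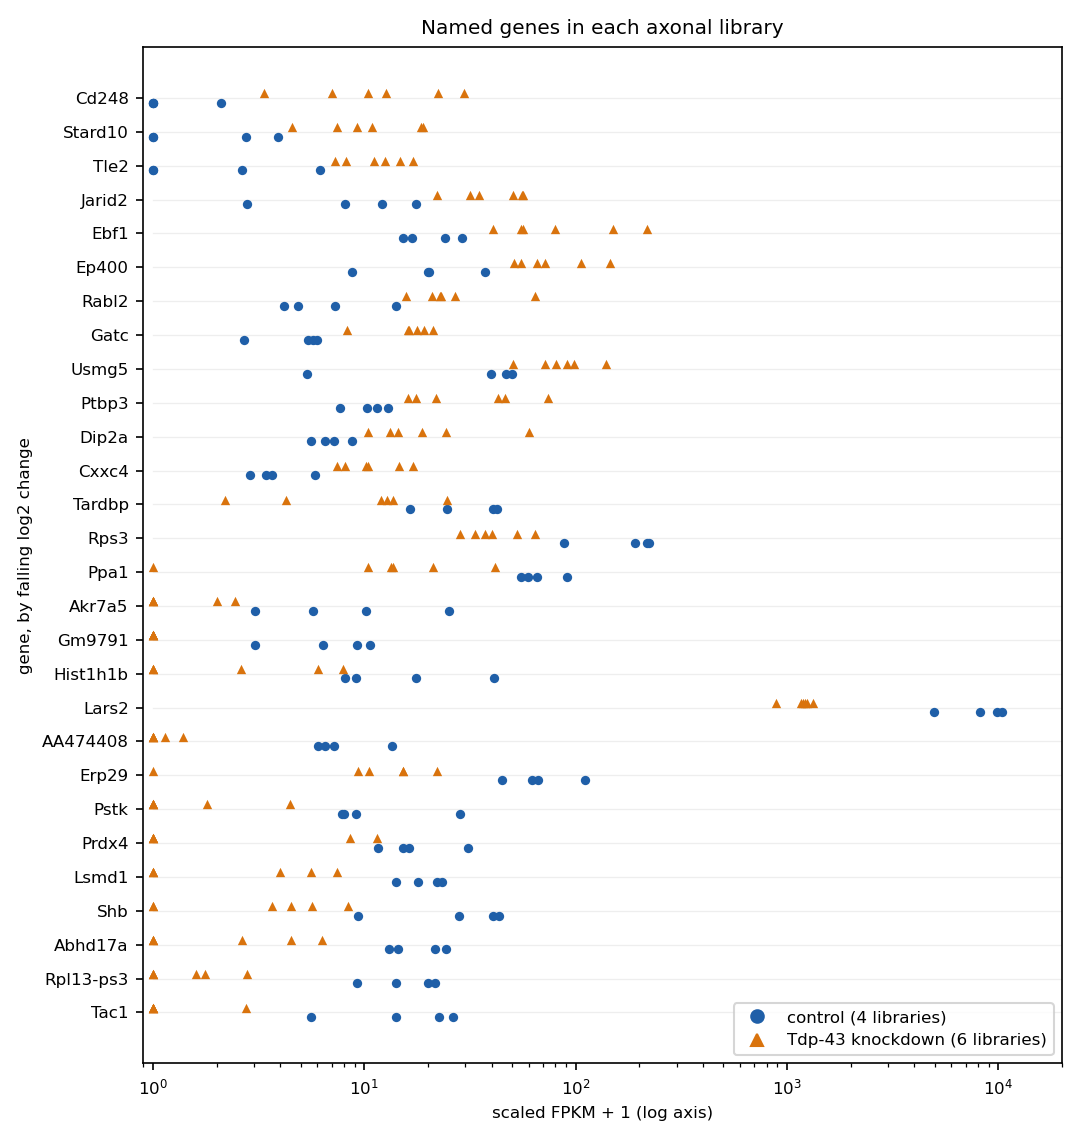
Scaled FPKM + 1 (log axis) of 28 named genes in each axonal library, with blue circles for the 4 control and orange triangles for the 6 Tdp-43 knockdown libraries, ordered by log2 change from Cd248 (3.23) to Tac1 (-3.64). The groups are apart for all genes but Tardbp, and Lars2 stands alone in level, with controls from 4966 to 10431.

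Whether these changes were larger in axons than in cell bodies was asked with the axonal minus the somatodendritic value of each culture, in limma, taking the libraries of a number as pairs. Of 11283 protein-coding genes with enough signal in each compartment, 509 (4.51%) were below an unadjusted 0.05 in this limma fit and 0 remained after adjustment. By this level 5% of unchanged genes would be called. Among the 23 genes of the 24 that could be tested, 10 had an unadjusted p under 0.05, 7 of the 11 rises and 3 of the 12 falls. These genes were chosen for their axonal change, which enters the difference, so that the count supports nothing by itself.

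All 12 falls were shared between the compartments in direction, and 4 of 11 rises were not. That is, 12 of 12 had a negative log2 change in somatodendritic libraries, 6 of them past the unadjusted threshold, where 8.01% of all tested protein-coding genes fell and 4.97% rose. Of the 11 rises that could be tested there, 7 had a positive change, 3 past that threshold, namely Jarid2 (0.71), Ep400 (1.0) and Ebf1 (1.26). Lars2 had the smallest p of the difference among the named genes, at -2.79 in axons and -0.56 in somatodendritic libraries (limma adjusted p of the difference = 0.982). Stard10 was at 2.51 in axons and -0.05 in somatodendritic libraries (limma adjusted p of the difference = 0.982), and Gatc at 1.74 and -0.02 (limma adjusted p of the difference = 0.982). Abhd17a fell by 3.11 on the log2 scale in axons and stood at -0.69 in somatodendritic libraries (limma adjusted p of the difference = 0.982). Tardbp differed in the other direction, at -1.71 in axons and -3.06 in somatodendritic libraries, without passing the test (limma adjusted p of the difference = 0.991).

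**Figure D2:**
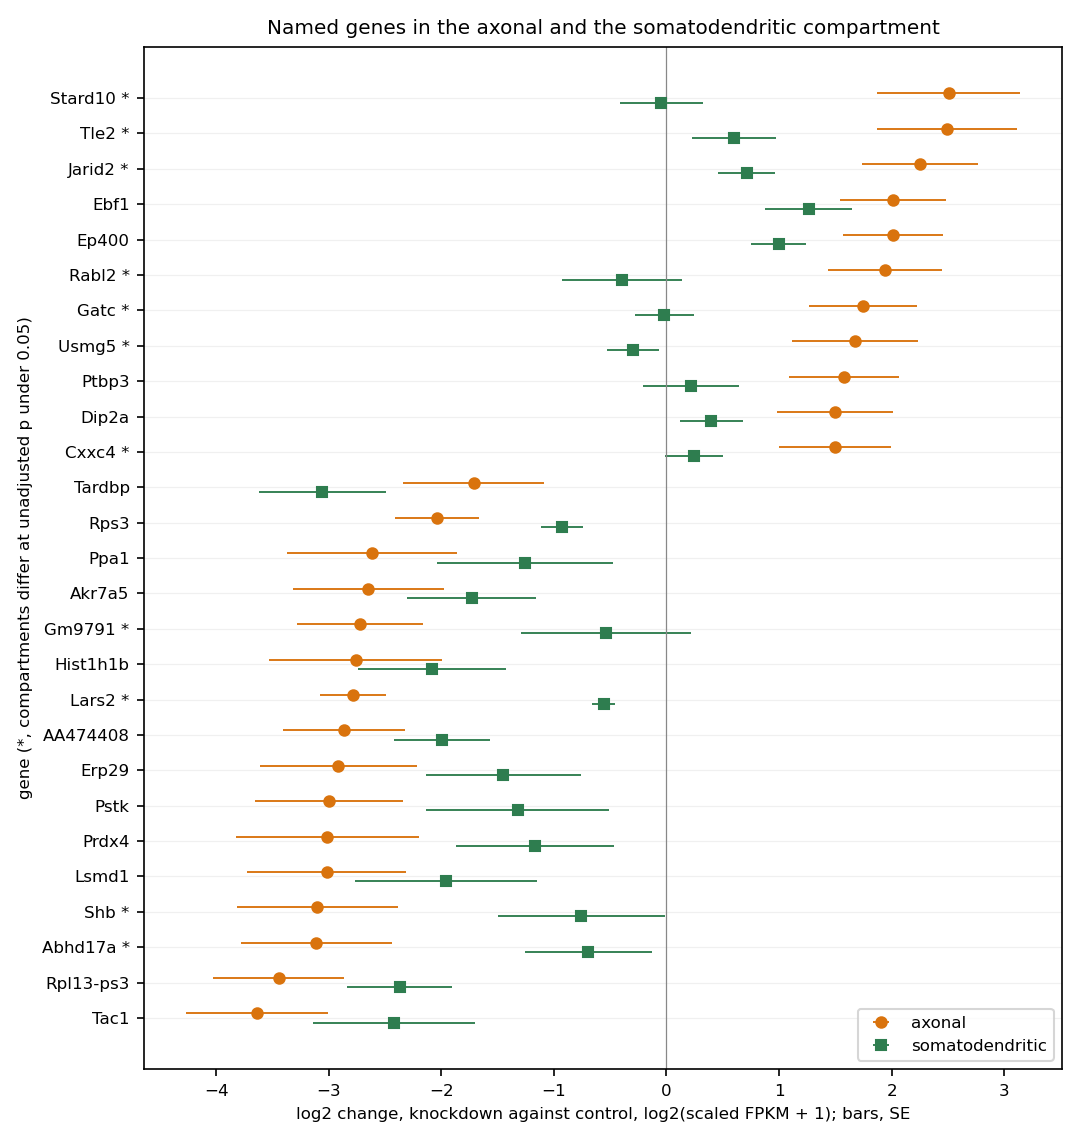
Log2 change of the named genes in axonal (orange circles) and somatodendritic (green squares) libraries, knockdown against control on the log2(scaled FPKM + 1) scale, with bars of 1 SE, and a star where the compartments differed at an unadjusted limma p under 0.05. Rises such as Stard10, Gatc, Usmg5 and Rabl2 sit near or below 0 in somatodendritic libraries, whereas all falls have negative values in both compartments.

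Functional classes were then described by their members, 39 classes in all, each by the number of members that rose or fell and by its relative median, the median log2 change of its tested members minus that of all protein-coding genes (-0.16). Counts are to be read against 2.07% higher and 5.24% lower among all protein-coding genes, and, with the FPKM as deposited, against 892 higher and 194 lower of the same 12077 genes. Levels are mean scaled FPKM ± SD, control (4 libraries) against knockdown (6 libraries), and are comparable between genes because FPKM is per length. In these bulk libraries a lower level can come from fewer axons or cells of a type as well as from less RNA per axon, and these cannot be told apart. Classes were not tested for a difference between compartments. In somatodendritic libraries, 19 of 32 small-subunit ribosomal proteins and 32 of 64 histones fell, at relative medians of -0.69 and -1.06. There, 17 of 98 chromatin regulators rose and 1 fell, at 0.31. Tubulins (-0.25) and glycolysis enzymes (-0.08) stood nearer to all genes there than in axons (-0.74 and -0.35). Of all protein-coding genes tested there, 8.01% fell and 4.97% rose. The examples with a log2 change are called genes, 103 beside those named above. Each kept its direction with the FPKM as deposited, where 31 of the 31 higher and 21 of the 72 lower ones passed, and 45 of them passed in all 10 fits without 1 library. A number alone in parentheses after a gene is its log2 change. Leaving out 1 library moved the relative median by over 1.5 times, or turned its sign, in 35 of the 39 classes, and the lowest and highest such values follow it in parentheses, each with the library left out. The sign was the same in 23 classes under each of 22 alternatives of scaling, filter, fit and libraries. The fit of protein-coding genes alone and that of all 20 libraries are counted among them. Both leave each log2 change as it was, so that they could not change a sign.

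**Figure D3:**
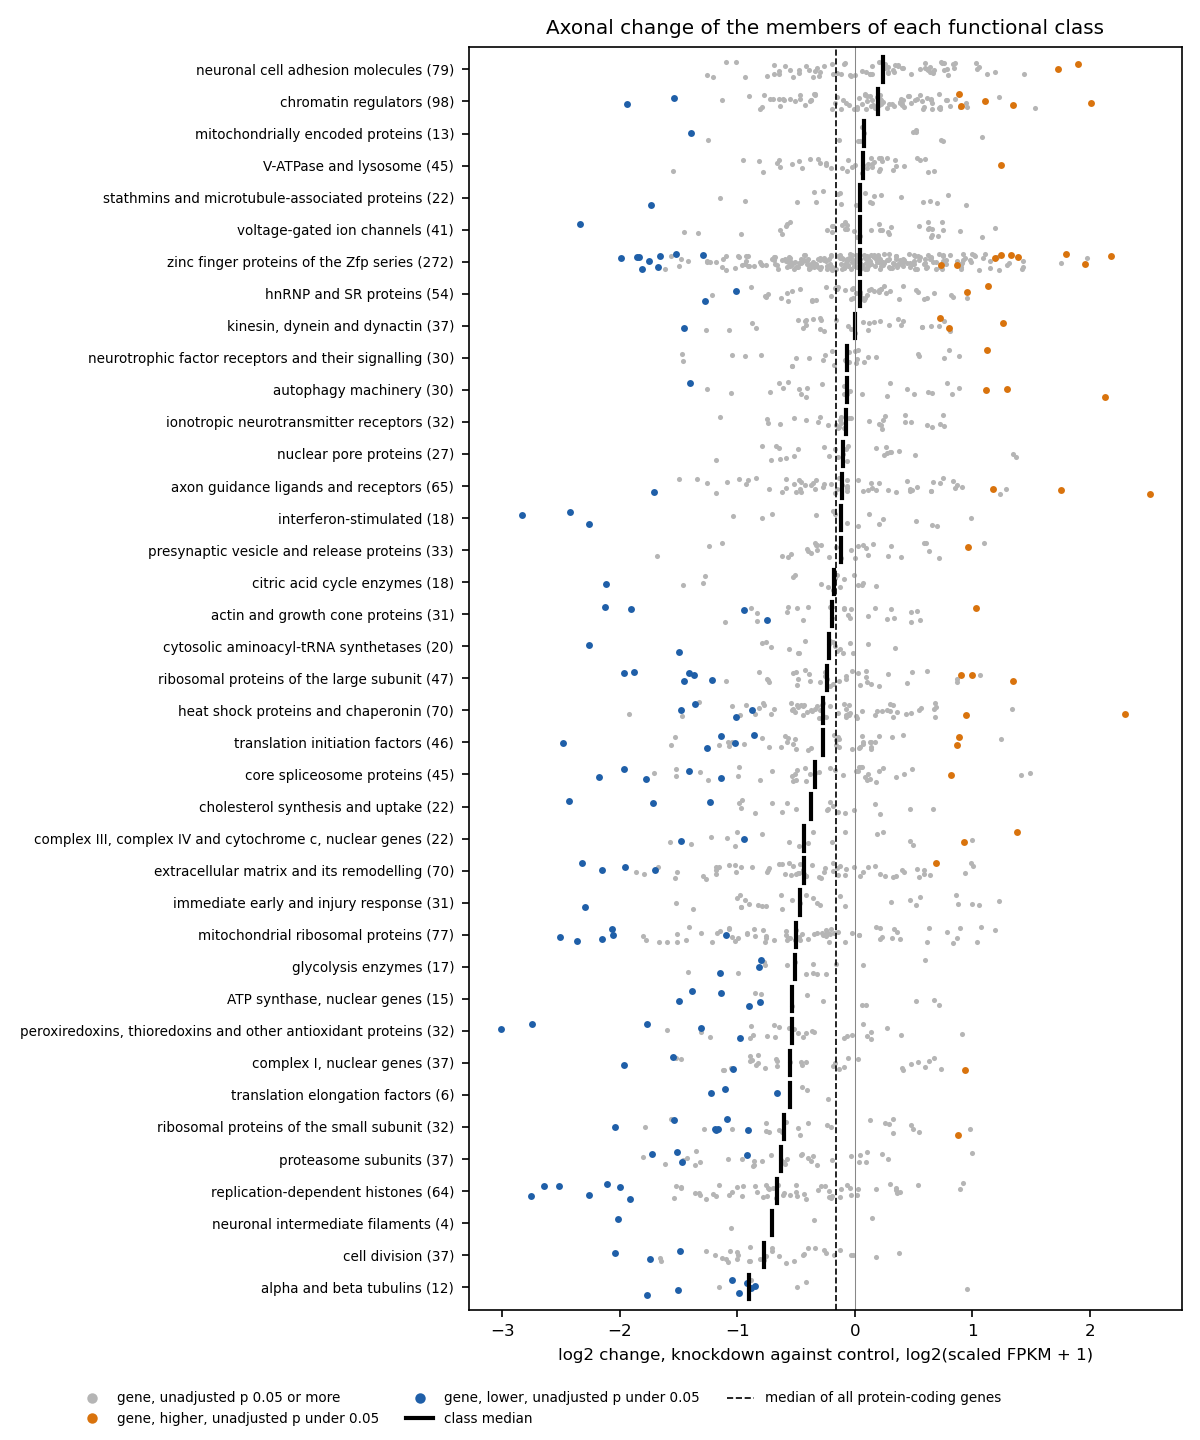
Log2 change, knockdown against control on the log2(scaled FPKM + 1) scale, of the tested members of each of the 39 functional classes (number of members in parentheses), grey below the threshold and coloured where the unadjusted limma p was under 0.05. Black bars mark class medians and the dashed line the median of all protein-coding genes (-0.16), from tubulins at a class median of -0.90 to neuronal cell adhesion molecules at 0.24.

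Among transcripts of the translation machinery falls outnumbered rises after scaling, though not with the FPKM as deposited, and the rises were among ribosomal proteins and initiation factors. Of 32 proteins of the small ribosomal subunit, 1 rose and 7 fell (7 and 2 with the FPKM as deposited), at a relative median of -0.44 (-0.25 without knockdown 4). Besides Rps3, falls without overlap were seen in Rps2 (146 ± 20.2 against 69.4 ± 28.4, log2 change -1.16) and Rps4x (112 ± 18.1 against 58.6 ± 7.19, log2 change -0.91). The most abundant members, Rps15 (381 ± 94.8 against 558 ± 208) and Rps26 (220.0 ± 28.5 against 332 ± 147), did not pass the test. Among 47 proteins of the large subunit, 3 rose and 6 fell (10 and 2 with the FPKM as deposited), at a relative median of -0.08 (-0.18 without knockdown 5, 0.08 without control 2), which changed sign in 6 of 22 alternatives and was 0.02 with the FPKM as deposited and -0.41 in the 7 deeper libraries. Rpl13, Rpl9 (-1.88), Rpl3 (-1.45) and Rpl7 (-1.22) fell, with no overlap between the groups for Rpl13, Rpl3 and Rpl7. Rises were seen in Rpl41 (1906 ± 382 against 3854 ± 1691, log2 change 0.91), Rpl35 (234 ± 26.3 against 516 ± 246, 1.0) and Rpl38 (1.35), and in the small subunit in Rps29 (0.88). In the 7 deeper libraries none of these rises passed, since 0 members rose in either subunit, and 6 and 5 fell.

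The ribosomal proteins that rose were short ones. By the longest coding sequence in GENCODE M21, 3 of the 4 that rose, Rpl41, Rps29 and Rpl38, were among the 5 shortest of 79, with at most 210 bases, whereas the 13 that fell were all longer, up to 1209 bases. This was noticed after the values were seen, and the other short members, Rpl39 and Rps28, did not pass the test.

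All 6 elongation factors had negative changes, and 3 fell (0 and 0 rose and fell with the FPKM as deposited), at a relative median of -0.40. Eef2, the translocation factor, went from 429 ± 71.97 to 270.1 ± 38.3 (log2 change -0.66) without overlap between the groups. Eef1b2 (-1.10) and Eef1d (-1.22) encode subunits of the exchange factor for Eef1a1, the most abundant member, which stood at 1699.5 ± 307 against 1343 ± 602 and did not pass. Of 46 initiation factors, 2 rose and 5 fell (3 and 1 with the FPKM as deposited), at a relative median of -0.12 (-0.25 without control 1, 0.04 without knockdown 4). Eif3l fell without overlap (57.01 ± 17.8 against 24.6 ± 1.58, log2 change -1.14), and so did Eif2b5, a subunit of the nucleotide exchange factor that the integrated stress response inhibits (-2.49). Eif4g2, which drives cap-independent initiation, rose in all 6 libraries above every control (358 ± 67.99 against 652 ± 102, log2 change 0.87). Among 20 cytosolic aminoacyl-tRNA synthetases, 0 rose and 2 fell (0 and 1 with the FPKM as deposited), Vars (-2.26) and Farsa (-1.50), and the relative median was -0.06 (-0.30 without control 4).

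By relative median, nuclear transcripts for oxidative phosphorylation stood lower than all genes, and the single calls were falls and a few rises of small subunits. The medians of single knockdown libraries had both signs. For complex I they ran from -0.05 to 0.21 in control and -0.23 to 0.50 in knockdown libraries. Those of complexes III and IV ran from -0.16 to 0.34 in control and -0.42 to 0.73 in knockdown libraries. For the ATP synthase they ran from -0.03 to 0.03 in control and -0.72 to 0.52 in knockdown libraries. In the ATP synthase class, 0 rose and 5 fell (2 and 0 with the FPKM as deposited) of 15 tested, at a relative median of -0.37 (-0.74 without knockdown 5, -0.16 without knockdown 3). The class leaves out Usmg5, the subunit named above, which rose (log2 change 1.67). Atp5a1, the alpha subunit of the catalytic head, went from 204 ± 12.3 to 94.6 ± 23.5 without overlap (log2 change -1.14). Atp5c1, the central stalk (-0.90), Atp5j of the peripheral stalk (-1.49) and Atp5g1 of the membrane ring (-1.39) fell as well. Atp5j2 (149 ± 52.9 against 226 ± 120.0) and Atp5o (112 ± 29.1 against 196 ± 92.1), the most abundant members, had higher means and did not pass. In complex I, 1 rose and 3 fell (4 and 0 with the FPKM as deposited) of 37, at a relative median of -0.40 (-0.24 without knockdown 5). Ndufa1 (-1.96), Ndufa9 (-1.55) and Ndufs7 (-1.04) fell, and Ndufv3 rose (152 ± 62.9 against 285 ± 84.98, log2 change 0.94).

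For complexes III and IV with cytochrome c, 2 rose and 2 fell (4 and 0 with the FPKM as deposited) of 22, at a relative median of -0.28 (-0.08 without knockdown 6). Cox6a1 (278 ± 125 against 806 ± 471, log2 change 1.38) and Cox8a (317 ± 56.8 against 643 ± 261, log2 change 0.93), small subunits of cytochrome c oxidase, rose from the highest levels of the class. Uqcrfs1, the iron-sulfur subunit of complex III, fell (-1.48), and so did Cox7a2l, a factor of supercomplex assembly (-0.95). The citric acid cycle stayed near all genes, with 0 risen and 1 fallen (0 and 1 with the FPKM as deposited) of 18 at a relative median of -0.02 (-0.14 without knockdown 5, 0.01 without knockdown 2), which changed sign in 4 of 22 alternatives. Its single fall was in Fh1, fumarate hydratase (-2.12), without overlap between the groups.

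Of 77 mitochondrial ribosomal proteins, 0 rose and 6 fell (5 and 5 with the FPKM as deposited), at a relative median of -0.34 (-0.12 without control 2), and 58 had a negative change, or 75.3% against 58.7% of all protein-coding genes. Mrps18b was at 13.5, 13.3, 11.6 and 11.95 scaled FPKM in control and at 0 at the lowest, 2.89 at the median and 8.39 at the highest in knockdown libraries, without overlap (log2 change -2.15). Mrpl12 (-2.51), Mrps34 (-2.07) and Mrps17 (-1.10) were apart too. Of the 13 proteins encoded by mitochondrial DNA, 0 rose and 1 fell (2 and 0 with the FPKM as deposited), at a relative median of 0.24 (-0.08 without knockdown 5, 0.69 without knockdown 3), which was -0.68 in the 7 deeper libraries and changed sign in 4 of 22 alternatives. Their mRNAs took 7.96% to 24.1% of the protein-coding FPKM in control and 4.59% to 33.03% in knockdown libraries. Among the knockdown libraries of the deeper set, the share was 6.07% in the one labelled knockdown 1, 4.59% in library 3 and 27.0% in library 6. Glycolysis stood lower, with 0 risen and 3 fallen (1 and 0 with the FPKM as deposited) of 17 at a relative median of -0.35 (-0.57 without control 3). Aldoa (209 ± 37.8 against 122 ± 32.6, log2 change -0.80) and Eno1 (-1.14) fell, as did Gapdh (66.2 ± 3.68 against 38.02 ± 9.81, log2 change -0.82), which is often used as a reference gene.

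In the cytoskeleton, tubulins stood lower than all genes under each of the 22 alternatives, and other microtubule proteins did not. Of 12 alpha and beta tubulins, 0 rose and 7 fell (1 and 2 with the FPKM as deposited), at a relative median of -0.74. Tuba1c (161 ± 19.4 against 81.4 ± 15.9, log2 change -0.99) and Tubb2b (312 ± 73.8 against 169.8 ± 42.9, log2 change -0.89) were apart between the groups. Tubb5 (719.9 ± 189.6 against 379.8 ± 102, log2 change -0.92) and Tubb4b (-0.85) fell with overlap, and Tuba1a, the most abundant tubulin, went from 799.7 ± 82.4 to 574 ± 89.998 without overlap but did not pass the test. Tubulin genes resemble each other closely, so that their single values are uncertain. Of 22 stathmins and microtubule-associated proteins, 0 rose and 1 fell (4 and 0 with the FPKM as deposited), at a relative median of 0.21 (0.06 without knockdown 4), or -0.01 in the 7 deeper libraries, with a fall in Stmn3 (-1.74) and with Map2 (176 ± 105 against 273 ± 97.9), Map1b (134 ± 15.97 against 161 ± 64.04) and Mapt (80.4 ± 22.5 against 144 ± 92.1) not past the test. Kinesin, dynein and dynactin stood at 0.16 (0.08 without knockdown 5), or 0.01 in the 7 deeper libraries and -0.00329 with array weights, and 3 rose and 1 fell (9 and 0 with the FPKM as deposited) of 37. Kif5c, a heavy chain of the kinesin that carries mRNA and mitochondria, rose from 99.8 ± 57.7 to 238 ± 95.7 (log2 change 1.26), and Kif1b (0.81) and Dynlrb1 (0.72) rose as well.

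Actin and growth cone genes were divided in direction. Of 31, 1 rose and 4 fell (5 and 1 with the FPKM as deposited), at a relative median of -0.03 (-0.10 without control 3, 0.07 without knockdown 6), which changed sign in 8 of 22 alternatives. Tmsb10, a thymosin that binds actin monomers, was at 809, 928, 721 and 889 scaled FPKM in control and at 1228 at the lowest, 1637 at the median and 2621 at the highest in knockdown libraries, all of the latter higher (log2 change 1.04, limma adjusted p = 0.226). Actb, whose mRNA is a textbook case of axonal transport, went from 3498 ± 1291 to 1798 ± 728 (log2 change -0.95) and Actg1 from 455 ± 141 to 268 ± 77.8 (log2 change -0.74). Arpc4 (-2.13) and Arpc1b (-1.91), subunits of the complex that branches actin filaments, fell. Among 4 neuronal intermediate filaments the single fall was in Nefl, and the highest member, Ina, was at 59.1 ± 6.36 against 77.6 ± 50.7.

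Among membrane and synapse classes, the relative medians of adhesion molecules, voltage-gated channels and ionotropic receptors were above 0 under each of the 22 alternatives. Those of guidance, neurotrophic and presynaptic classes had either sign. Medians of single knockdown libraries ran from -0.27 to 0.70 for adhesion molecules, -0.33 to 0.87 for channels and -0.73 to 0.89 for ionotropic receptors. They thus had both signs and overlapped with the control libraries. Neuronal cell adhesion molecules stood at 0.40 (0.26 without control 1), and 2 rose and 0 fell (17 and 0 with the FPKM as deposited) of 79. Negr1, an immunoglobulin adhesion protein, changed by 1.90, and the teneurin Tenm1 by 1.73, both with overlap between the groups. Ncam1, the most abundant member, was at 118 ± 26.2 against 157 ± 58.8 and did not pass. Of 65 axon guidance ligands and receptors, 3 rose and 1 fell (9 and 0 with the FPKM as deposited), at a relative median of 0.05 (-0.02 without knockdown 2, 0.17 without knockdown 5), which changed sign in 4 of 22 alternatives. Epha6, an ephrin receptor, was listed at 0 in 2 control libraries and at up to 1.51 scaled FPKM in the others, and was at 2.03 at the lowest, 8.83 at the median and 16.3 at the highest in knockdown libraries (log2 change 2.51, limma adjusted p = 0.167). Ephb2 rose from 9.64 ± 7.59 to 31.8 ± 12.2 (log2 change 1.75) and the semaphorin receptor Plxna2 from 13.6 ± 3.25 to 35.6 ± 17.5 (1.18), whereas the ligand Sema3c fell (-1.71).

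Among 30 genes of neurotrophic factor signalling, 1 rose and 0 fell (4 and 0 with the FPKM as deposited), at a relative median of 0.10 (-0.09 without control 2, 0.15 without control 3), which was -0.15 in the 7 deeper libraries and changed sign in 6 of 22 alternatives. The single rise was in Ntrk3, the receptor of neurotrophin-3, from 10.8 ± 1.93 to 29.1 ± 19.2 (log2 change 1.13). Voltage-gated ion channels stood at 0.20 (0.09 without knockdown 3, 0.39 without knockdown 5), with 0 risen and 1 fallen (3 and 1 with the FPKM as deposited) of 41. Presynaptic proteins stood at 0.04 (-0.21 without knockdown 3, 0.28 without knockdown 5), with 1 risen and 0 fallen (2 and 0 with the FPKM as deposited) of 33, and the rise was in Vamp2, the vesicle SNARE of transmitter release (46.6 ± 11.6 against 108 ± 75.7, log2 change 0.97). The presynaptic median changed sign in 7 of 22 alternatives. None of 32 ionotropic receptors rose or fell (1 rose with the FPKM as deposited), and their relative median was 0.09 (0.05 without knockdown 3, 0.29 without knockdown 5).

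In protein turnover, proteasome transcripts stood lower than all genes and lysosomal ones did not. Of 37 proteasome subunits, 0 rose and 4 fell (1 and 0 with the FPKM as deposited), 30 had a negative change, and the relative median was -0.47, or -0.26 in the 7 deeper libraries. Psmb4 (87.7 ± 53.9 against 29.03 ± 11.6, log2 change -1.47), Psma5 (-1.73) and Psma6 (-0.91) belong to the core particle, and Psmd6 (-1.51) to the regulatory lid. For heat shock proteins and the chaperonin, 2 rose and 4 fell (3 and 1 with the FPKM as deposited) of 70, at -0.11 (-0.17 without knockdown 5, -0.02 without control 2). Tcp1 (62.6 ± 7.89 against 34.03 ± 7.45, log2 change -0.88), Cct7 (-1.36) and Cct3 (-1.01), subunits of the cytosolic chaperonin that folds tubulin and actin, fell together with the co-chaperone Dnajb12 (-1.48), and Hsp90ab1 was at 604 ± 104 against 628 ± 89.1. Dnajb6, a suppressor of polyglutamine aggregation, rose (0.95).

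Peroxiredoxins, thioredoxins and other antioxidant proteins had 5 falls and 0 rises among 32 tested members (3 and 1 with the FPKM as deposited), at a relative median of -0.38 (-0.20 without knockdown 5). Besides Prdx4 and Sod1, Prdx5 fell from 71.7 ± 8.69 to 40.1 ± 20.0 (log2 change -0.98), and so did Gpx4, which reduces lipid peroxides (-2.75), and Gstm2 (-1.77). The V-ATPase and the lysosome stood at 0.23 (0.07 without control 3), with 1 risen and 0 fallen (4 and 0 with the FPKM as deposited) of 45, the rise being in Ctsa, a lysosomal carboxypeptidase (32.97 ± 13.3 against 90.6 ± 56.3, log2 change 1.24). Their relative median turned to -0.02 in the 7 deeper libraries. In the autophagy machinery, 3 rose and 1 fell (6 and 0 with the FPKM as deposited) of 30, at 0.09 (0.01 without control 1, 0.24 without knockdown 6). Pik3c3, the lipid kinase that starts autophagosome formation, rose from 3.92 ± 1.26 to 9.79 ± 2.82 (log2 change 1.12), and the protease Atg4b fell (-1.40).

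Among nuclear factors, mRNAs of chromatin regulators stood higher than all genes and those of histones lower. Of 98 chromatin regulators, 5 rose and 2 fell (20 and 1 with the FPKM as deposited), 66 had a positive change, and the relative median was 0.36. The medians of the 10 libraries, relative to the control mean and all genes, ran from -0.17 to 0.16 in control and 0.24 to 0.62 in knockdown libraries, without overlap. In the 7 deeper libraries, 7 rose and 2 fell. Besides Ep400, the histone demethylases Kdm6b (9.17 ± 4.10 against 24.02 ± 6.08, log2 change 1.35) and Kdm4a (0.90) rose with the groups apart, and Setd5 rose with overlap (0.89). The histone deacetylases Hdac7 (-1.94) and Hdac8 (-1.54) fell. The exonic length of these genes was high, at a median of 9583 bases, and with the trend over exonic length subtracted the relative median was 0.13.

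Of 64 replication-dependent histones, 0 rose and 7 fell (2 and 5 with the FPKM as deposited), at a relative median of -0.50 (-0.33 without knockdown 3). Their mRNAs are made in dividing cells and lack a poly(A) tail, and many are close copies of each other, so that single values are uncertain. Hist1h3i was at 16.1, 22.1, 25.7 and 20.8 scaled FPKM in control and at 0 at the lowest, 4.37 at the median and 9.16 at the highest in knockdown libraries (log2 change -2.27), and the linker histone Hist1h1a changed by -2.64. Zinc finger proteins of the Zfp series, many of which bind DNA, stood at 0.20 (0.13 without knockdown 3), with 9 risen and 9 fallen (24 and 3 with the FPKM as deposited) of 272, among them rises of Zfp106 (58.6 ± 16.9 against 96.3 ± 17.4, log2 change 0.73) and Zfp386 (1.33) and a fall of Zfp768 (-1.99).

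RNA-binding proteins of the hnRNP and SR families stood at 0.20 (0.07 without knockdown 5), with 2 risen and 2 fallen (10 and 0 with the FPKM as deposited) of 54. Hnrnpa1, a close relative and partner of Tdp-43, fell from 29.9 ± 9.46 to 11.98 ± 5.10 (log2 change -1.28), Hnrnpa0 fell by 1.01 on the log2 scale, Srsf4 rose above every control library (13.97 ± 0.985 against 28.6 ± 7.35, log2 change 0.95), and the neuronal splicing factor Rbfox3 rose (1.14). Core spliceosome proteins stood at -0.18 (-0.28 without control 4, -0.03 without control 3), with 1 risen and 5 fallen (3 and 1 with the FPKM as deposited) of 45. Falls were in Sm proteins of the small nuclear ribonucleoproteins, Snrpb (27.2 ± 4.83 against 8.53 ± 5.53, log2 change -1.78), Snrpd3 (-1.97), Snrpe (-1.14) and Snrpg (-2.18), while Lsm3 rose (0.82). None of 27 nuclear pore proteins rose or fell (3 rose with the FPKM as deposited), at a relative median of 0.06 (-0.07 without the library labelled knockdown 1, 0.23 without control 2), which changed sign in 7 of 22 alternatives.

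Classes of dividing and other cells varied widely between libraries. Of 37 cell division genes, 35 had a negative change, or 94.6% against 58.7% of all protein-coding genes, and 0 rose and 3 fell (0 and 0 with the FPKM as deposited), at a relative median of -0.62 (-1.02 without knockdown 5, -0.34 without knockdown 3). The library medians ran from -0.17 to 0.29 in control and -2.05 to 1.2 in knockdown libraries, so that the groups overlapped, with knockdown library 5 at the top and knockdown library 4 at the bottom. Without knockdown library 5, 10 members fell. Mcm2, a replication helicase subunit, was apart between the groups (11.7, 14.1, 12.5 and 11.7 scaled FPKM in control and 0 at the lowest, 3.32 at the median and 9.98 at the highest in knockdown libraries, log2 change -2.04), and Cdk1, the most abundant member, went from 99.3 ± 42.6 to 54.5 ± 44.6 and did not pass the test. Of the 10 neural progenitor markers, 8 had a negative change and 2 fell (1 with the FPKM as deposited), the intermediate filament gene Nes (90.8 ± 21.4 against 43.9 ± 46.7) and the Notch target Hes1 (9.82 ± 3.58 against 2.10 ± 2.42). Their relative median was -0.48, below 0 under each of the 22 alternatives, while their sums overlapped between the groups, and their part in the cell division class was not tested.

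For the extracellular matrix, 1 rose and 4 fell (2 and 0 with the FPKM as deposited) of 70, at -0.28 (-0.43 without knockdown 5, -0.05 without knockdown 4). Thbs2, a thrombospondin, was at 16.2, 42.6, 30.7 and 15.8 scaled FPKM in control and at 0 at the lowest, 4.93 at the median and 40.6 at the highest in knockdown libraries (log2 change -2.33), and Timp2, an inhibitor of matrix proteases, rose from 77.8 ± 20.6 to 126 ± 33.04 (log2 change 0.69). In cholesterol synthesis, 0 rose and 3 fell (2 and 1 with the FPKM as deposited) of 22, at -0.21 (-0.36 without knockdown 3, -0.05 without knockdown 2), the falls being in Ebp (-2.44), Mvk (-1.72) and Fdps (41.7 ± 6.16 against 20.1 ± 9.76, log2 change -1.23). Immediate early and injury response genes stood at -0.31 (-0.04 without knockdown 5), which turned to 0.13 in the 7 deeper libraries. Of 31, 0 rose and 1 fell (1 and 1 with the FPKM as deposited), the fall being in Atf5 (-2.30). Among 18 interferon-stimulated genes, 0 rose and 3 fell (1 and 2 with the FPKM as deposited), the membrane proteins Ifitm2 (-2.84), Ifitm3 (156 ± 55.9 in control and 0 at the lowest, 75.7 at the median and 85.2 at the highest in knockdown libraries, log2 change -2.43) and Bst2 (-2.26), and the relative median was 0.04 (-0.14 without knockdown 4, 0.25 without knockdown 3), which changed sign in 11 of 22 alternatives.

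**Figure D4:**
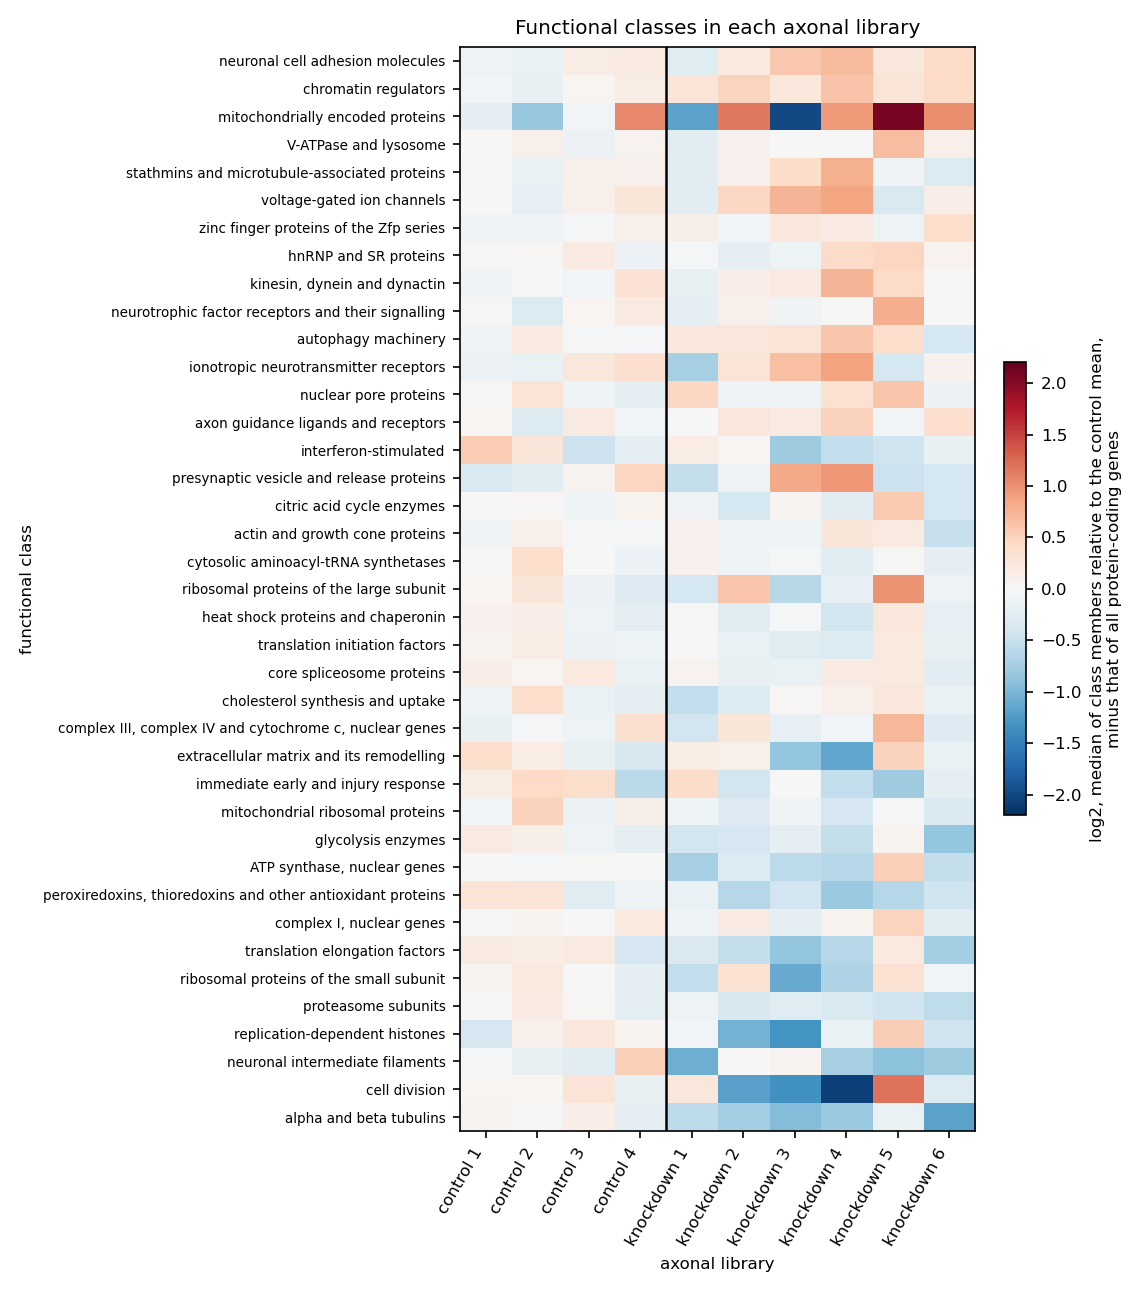
Median log2 value of the members of each class in each axonal library, relative to the control mean and to all protein-coding genes (colour scale, red higher and blue lower), with the 4 control libraries left of the line and the 6 knockdown libraries right of it. Tubulins, proteasome subunits and antioxidant proteins are below 0 and chromatin regulators above 0 in all 6 knockdown libraries, whereas mitochondrially encoded proteins (-1.99 to 2.09) and cell division genes (-2.05 to 1.2) differ in sign between knockdown libraries.

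The plot of the classes by library shows classes with the same sign in the 6 knockdown libraries and classes whose sign differed between them. Proteasome medians ran from -0.21 to 0.18 in control and -0.56 to -0.11 in knockdown libraries, and antioxidant medians from -0.27 to 0.28 in control and -0.81 to -0.15 in knockdown libraries. Tubulin medians ran from -0.20 to 0.15 in control and -1.18 to -0.14 in knockdown libraries. Each of these classes lay below 0 in every knockdown library and overlapped with the control range.

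The change also followed the annotated exonic length of the genes. This counts every base in an exon of any annotated transcript and is not the length of a single transcript. Exonic lengths from GENCODE M21 were at hand for 11990 of the 12077 protein-coding genes. In the shortest quintile of genes (201 to 2572 bases) the median log2 change was -0.33, and 9.38% fell and 1.88% rose. In the longest quintile (8086 to 123179 bases) the median was 0.04, and 1.54% fell and 3.5% rose. The order of the medians held with the FPKM as deposited (0.06 in the shortest and 0.47 in the longest quintile) and in the 7 deeper libraries (-0.08 and 0.22). The somatodendritic libraries had the same order, from -0.32 to 0.03. By the span of the gene in the genome, introns included, the medians ran from -0.34 in the shortest to 0.03 in the longest quintile.

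**Figure D5:**
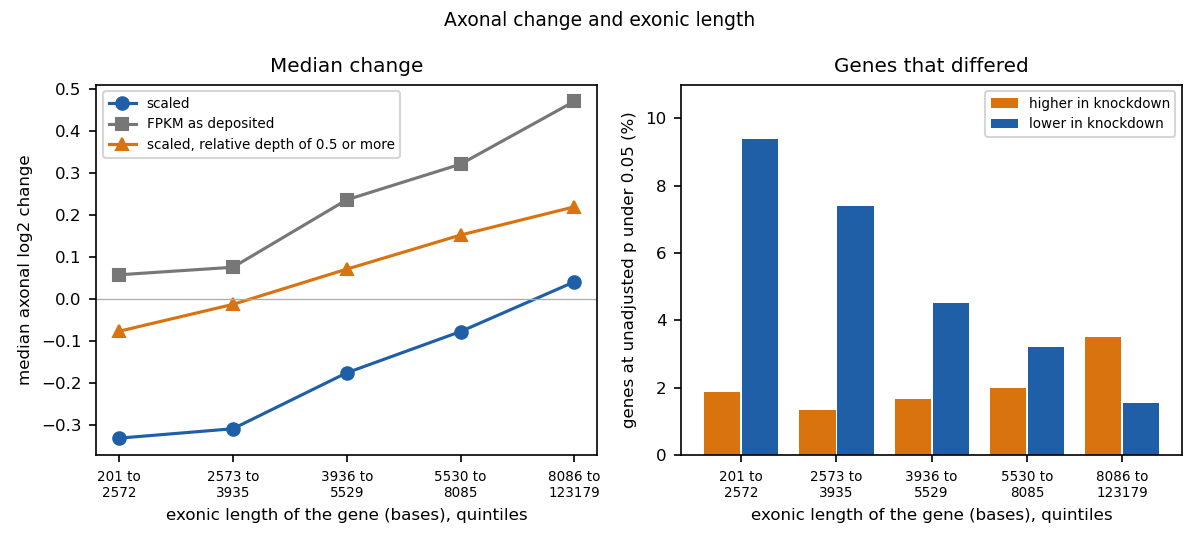
Left, median axonal log2 change (knockdown against control) by quintiles of exonic length in bases, scaled (blue), as deposited (grey) and in the 7 deeper libraries (orange). Right, percentage of genes at an unadjusted limma p under 0.05, with 9.38% lower among the shortest and 1.54% among the longest genes.

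The classes differ in length as well, from a median of 539 bases for histones to 9583 for chromatin regulators. With the trend over length subtracted, the relative median stayed at -0.61 for tubulins, -0.45 for proteasome subunits and 0.29 for neuronal cell adhesion molecules. It moved nearer to 0 by over 1.5 times in 12 classes, among them complex I (-0.23), complexes III and IV (-0.10), the ATP synthase (-0.19), histones (-0.27) and chromatin regulators (0.13), and changed sign in 5, among them microtubule-associated proteins (-0.00206). By level, the split was as follows. Among 237 genes that averaged 100 FPKM or more, 23 rose and 24 fell, or 9.70% and 10.1%, and among 4370 genes below 5 FPKM 29 rose and 204 fell.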

How the data were processed

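Total RNA of the axonal compartment was sequenced in 4 control and 6 Tdp-43 knockdown libraries. The authors deposited FPKM values per gene with confidence intervals, made with Cufflinks 2.2.1 on GRCm38 after FastQC 0.10.1 (submitters' processing notes). The sources used here do not state a test for the authors' comparison. FPKM is not a count, so values were divided by median-of-ratios factors, taken over genes that reached 1 FPKM in each library, and log2(scaled FPKM + 1) was fitted in limma 3.58.1 (R 4.3.3, eBayes with trend) for all genes averaging 1 FPKM or more, with Benjamini-Hochberg adjustment over all genes of every type. Tardbp was also tested by an exact permutation test over all 210 splits (smallest two-sided p 0.00476). Depth is unknown in reads. Relative depth and implied fragments were estimated from the confidence intervals, which the authors deposited. The distance from a value to its upper bound was taken as 2 SDs of a Poisson count. Implied fragments are a rough index and no count of reads, since they fall below 1 for genes above 0. In a median knockdown library they were 12.95 for Cd248 (2605 exonic bases, knockdown mean 13.2 scaled FPKM) and 1.05 for Rabl2 (2960 bases, 28.0). Whether the intervals hold more than counting error was not tested, and they do not measure the spread between libraries. A gene under 0.001 FPKM was taken as listed at 0.

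Named genes were those past the adjusted threshold of 0.05, and the 12 largest rises and 12 largest falls among genes whose groups did not overlap, with an unadjusted p under 0.05 and at least 10 scaled FPKM in the higher group, leaving out genes that the study names. Of each class, some of the 3 members with the highest mean FPKM and, as examples, members with an unadjusted p under 0.05 are named, the examples by role and after their values were seen. Some genes are not reported here. Members and lists were chosen with earlier results of these data known. Axonal and somatodendritic libraries with the same number were paired in the test between compartments, which is an assumption, since deviations of same-numbered libraries did not correlate more than others. Fits were tested on simulated data. GENCODE M21 gave exonic lengths and sequences, and blastn 2.17.0 near copies (at least 90% identity over 200 bases). Python 3.11.15, numpy 2.4.6, pandas 2.3.3, scipy 1.17.1, statsmodels 0.14.6 and matplotlib 3.10.9 were used. Alternatives covered scaling, pseudocount, filter, genes fitted, library weights, all 20 libraries, replicate block, depth and leaving out each library. The length trend, and class counts by depth, were added after seeing the data.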

Additional observations from a re-analysis of the deposited data

Results flagged for a closer look

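In 28 of 350 groups examined, for a gene or a class median, a single library stood far from the others of its group, by the ratio of its gap to the range of the group. Chance flags about 1 in 20 groups. All gene values are scaled FPKM, and the causes were not tested.

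Among the genes past the adjusted threshold and the largest changes, Lars2 was at 886 in knockdown library 5, with the others at 1168 to 1330.5 in its group. Cd248 was at 1.10 in control library 1, with the others at 0 in its group. Tac1 was at 1.74 in knockdown library 3, with the others at 0 in its group. AA474408 was at 12.6 in control library 1, with the others at 5.04 to 6.19 in its group. AA474408 was at 0.387 in the library labelled knockdown 1, with the others at 0 to 0.140 in its group. Pstk was at 27.3 in control library 4, with the others at 6.88 to 8.15 in its group. Pstk was at 3.47 in knockdown library 3, with the others at 0 to 0.801 in its group. Rabl2 was at 63.6 in knockdown library 5, with the others at 14.8 to 25.9 in its group. Gatc was at 1.68 in control library 4, with the others at 4.41 to 4.97 in its group. Dip2a was at 59.2 in knockdown library 4, with the others at 9.45 to 23.3 in its group.

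Among the class examples, Actb was at 3192 in the library labelled knockdown 1, with the others at 1232 to 1885 in its group. Actg1 was at 416 in the library labelled knockdown 1, with the others at 207 to 277 in its group. Bst2 was at 7.32 in knockdown library 6, with the others at 0 to 1.69 in its group. Ephb2 was at 21.02 in control library 4, with the others at 5.46 to 6.33 in its group. Gstm2 was at 1.74 in knockdown library 3, with the others at 0 in its group. Hdac8 was at 1.34 in the library labelled knockdown 1, with the others at 0 in its group. Hnrnpa0 was at 22.2 in control library 1, with the others at 15.8 to 16.7 in its group. Kdm4a was at 9.63 in control library 1, with the others at 15.4 to 15.9 in its group. Kif5c was at 186 in control library 4, with the others at 65.6 to 75.6 in its group. Ndufs7 was at 66.9 in knockdown library 5, with the others at 12.3 to 23.8 in its group. Ndufv3 was at 452 in knockdown library 2, with the others at 216 to 282 in its group. Negr1 was at 39.01 in control library 4, with the others at 2.27 to 6.71 in its group. Sema3c was at 20.2 in the library labelled knockdown 1, with the others at 1.57 to 6.87 in its group. Thbs2 was at 40.6 in the library labelled knockdown 1, with the others at 0 to 12.2 in its group.

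Among the class medians, in log2 relative to the control mean and all protein-coding genes, the median of translation elongation factors was at -0.37 in control library 4, with the others at 0.16 to 0.20 in its group. The median of ATP synthase, nuclear genes was at 0.52 in knockdown library 5, with the others at -0.72 to -0.30 in its group. The median of kinesin, dynein and dynactin was at 0.32 in control library 4, with the others at -0.07 to -0.02 in its group. The median of neurotrophic factor receptors and their signalling was at 0.80 in knockdown library 5, with the others at -0.20 to 0.10 in its group.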

How the results depend on the processing

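The direction of the counts changed with the scaling and with the libraries included. With the FPKM as deposited 892 genes rose and 194 fell, 13 passed the adjusted threshold, 350 had groups without overlap and the median was 0.25. The number past the adjusted threshold was 4 with a pseudocount of 0.1, 14 without a filter, 1 among protein-coding genes alone and 20 with array weights, which also gave 408 rises. A mean of at least 5 FPKM left 387 falls and 323 genes that differed between compartments, with fewer genes tested. All 20 libraries in 1 fit gave 1595 calls, 540 higher and 1055 lower, and 98 past the adjusted threshold. The 7 libraries at 0.5 or more of the greatest depth gave 403 rises, 389 falls, 5 adjusted calls and 887 genes without overlap, with fewer samples. Their knockdown libraries were those labelled 1, 3 and 6. Tardbp was at 35.1% of control after scaling and at 36.5% without the library labelled knockdown 1, both past the exact test. Causes of the other shifts were not tested.

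Leaving out 1 library at a time gave 643 to 1036 calls, 191 to 430 higher and 443 to 728 lower. Adjusted calls ranged from 2 to 12, with 3 without control library 1, 2 without control library 3 and 5 without knockdown library 2 or 6. Genes without overlap ranged from 316 to 585, differences between compartments from 393 to 618, and Tardbp from 36.5% to 62.5%. Relative medians of classes ranged from -0.30 to -0.062 for aminoacyl-tRNA synthetases, lowest without control library 4 and highest without knockdown library 5, from -0.74 to -0.16 for the ATP synthase, lowest without knockdown library 5, and from -0.48 to -0.12 for mitochondrial ribosomal proteins, highest without control library 2. The last stood at -0.67 with a pseudocount of 0.1, the ATP synthase at -0.74 with array weights, proteasome subunits at -0.26 and interferon-stimulated genes at -0.42 in the same 7 libraries. Interferon-stimulated genes stood at -2.28 with a mean of at least 5 FPKM, and chromatin regulators at 0.13 with the length trend subtracted. Of 897 class medians under alternatives, 887 moved by less than the spread and 71 changed sign. They include those from protein-coding genes alone and from all 20 libraries in 1 fit, which could not differ from the main values. Of 2913 values of 133 genes, 491 in 94 genes lost the threshold and 0 reversed.

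Control and knockdown libraries share replicate numbers, but deviations of same-numbered libraries correlated at -0.01 to 0.07, so that the numbers were not taken as pairs, and 1 of 4 libraries correlated best with its own number. With the replicate block 404 genes rose, 1 passed the adjusted threshold and the ATP synthase stood at -0.79. Between compartments, 2 of 10 libraries correlated best with their own number.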

Other observations

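Beyond the largest changes, 45 of the 103 class examples passed the unadjusted limma threshold in every fit that left out 1 library. Among rises these were Cox6a1, Eif4g2, Epha6, Ephb2, Kdm6b, Kif5c, Rpl35, Srsf4, Tmsb10 and Zfp386. Among falls they were Arpc4, Atf5, Atp5a1, Bst2, Cct7, Dnajb12, Ebp, Eif2b5, Eif3l, Fh1, Gpx4, Hdac8, Hist1h1a, Hist1h3i, Hnrnpa1, Ifitm2, Mcm2, Mrpl12, Mrps18b, Mrps34, Psmb4, Rpl13, Rpl3, Rpl7, Rpl9, Rps2, Rps4x, Sema3c, Snrpb, Tcp1, Tuba1c, Tubb2b, Tubb5, Vars and Zfp768. None of them passed the adjusted limma threshold.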
